A study of Drosophila melanogaster with 800 samples.

Results

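The sperm leucyl aminopeptidases are 8 Drosophila melanogaster genes of the leucyl aminopeptidase family: S-Lap1, S-Lap2, S-Lap3, S-Lap4, S-Lap5, S-Lap7, S-Lap8 and loopin-1. They were chosen by name and matched through their FlyBase symbols to FBgn identifiers, and all 8 were found among the 35014 features measured. The rule names genes and holds no threshold on a value, and the set was proposed with earlier results of these data known. The data came from 200 inbred, sequenced lines of the Drosophila Genetic Reference Panel, which descend from wild-caught females through 20 generations of mating between full sibs. RNA was taken from whole flies in pools of 25 females or 30 males, with 2 replicate pools for each line and sex, which gave 400 male and 400 female libraries. RNA sequencing after depletion of ribosomal RNA gave strand-specific single reads of 125 bases, and the values are FPKM, fragments scaled by the exon length of the gene and the size of the library, on a log2 scale.

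Males and females of every line shared their genotype, apart from the sex chromosomes, and their conditions: cornmeal-molasses-agar medium, 25 °C, mated adults of 3 to 5 days of age. The labels name no transgene and no treatment. Each line is 1 inbred genotype, so a line effect is the effect of a whole genome and not of any single variant.

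Leucyl aminopeptidases are metalloenzymes that remove amino acids from the amino end of peptides. In Drosophila the family has expanded into a set of genes expressed in the testis, and their products are among the most abundant proteins of mature sperm. During spermatid differentiation the mitochondria fuse into a large body, the Nebenkern, which unfurls into derivatives that run along the growing tail and fill with paracrystalline material. Sperm leucyl aminopeptidases are constituents of that material, and several are thought to have lost the residues needed for catalysis. Loopin-1 was described as a protein of the spermatid mitochondrial derivatives and the sperm tail.

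The 8 genes lie in 2 chromosome arms. In the Ensembl BDGP6.54 annotation, S-Lap1 (FBgn0035915), S-Lap2 (FBgn0052351), S-Lap3 (FBgn0045770) and S-Lap4 (FBgn0052064) are on 3L, while S-Lap5 (FBgn0033860), S-Lap7 (FBgn0033868), S-Lap8 (FBgn0034132) and loopin-1 (FBgn0259795) are on 2R. S-Lap1 and S-Lap2 are direct neighbours with 0 protein-coding genes between them, and 2 protein-coding genes separate S-Lap3 from S-Lap4. On 2R, 2 protein-coding genes separate S-Lap8 from loopin-1, and 10 separate S-Lap5 from S-Lap7. S-Lap7 is the only one of the 8 on the minus strand. Annotated exons span 2055 bases in S-Lap8 to 2144 bases in loopin-1, apart from S-Lap3 with 3014 bases. How reads shared by related copies were assigned is not given in the sources used here, so the split of reads among the most alike members is uncertain.

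Depth was read from the steps between low FPKM values. The shallowest library held 7.27 M reads (megareads), the median 11.5 M and the deepest 30.6 M. In males the median line mean of the marker lists was 6.31 log2 FPKM for testis, 9.30 for accessory gland and 10.69 for ejaculatory bulb, and the ovary list summed to a median of 11.6 FPKM in males against 2188 FPKM in females. In females the testis list summed to a median of 59.3 FPKM, against 3122 FPKM in males, and 2 of its genes, twe and bol, averaged 5.57 and 2.61 log2 FPKM in females. A library of whole flies does not tell fewer cells of a type apart from less RNA per cell, and this holds for every level below.

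In males 7 of the 8 genes were among the most abundant transcripts of the whole fly, and S-Lap5 was 3.24 log2 units below the least abundant of them, S-Lap3. S-Lap1 was the highest member, with 8.63 in its lowest male library, 9.86 at the median and 10.62 in its highest (log2 FPKM, n = 400 libraries). Its median of 928 FPKM rested on a median of 22926 reads per library, and its mean level placed it at position 62 of the 35014 features. Loopin-1 followed with 8.03 in its lowest and 9.29 in its median library and 9.98 in its highest line, at position 118. S-Lap7 and S-Lap4, which had nearly the same level, came next at positions 130 and 135.

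S-Lap7 spanned 7.95 to 9.88 with a median of 9.17 log2 FPKM. S-Lap4 spanned 7.90 to 9.96 with a median of 9.13. The lower group was formed by S-Lap8, S-Lap2 and S-Lap3, at positions 240, 266 and 267. S-Lap8 had 7.41 in its lowest male library, 8.54 at the median and 9.28 in its highest. S-Lap2 ran from 7.27 to 9.21 around a median of 8.41, and S-Lap3 from 7.17 to 9.13 around 8.40. S-Lap5, at position 2787, ran from 3.84 to 6.02 around a median of 5.15 log2 FPKM, or 35.5 FPKM, and its highest male library was below the lowest male library of every other member.

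The order of levels was steady from line to line at 3 of its 7 steps. S-Lap1 was above loopin-1 in 200 of 200 lines, by 0.58 ± 0.06 log2 units (mean and SD of the line differences). S-Lap4 was above S-Lap8 in all 200 lines, by 0.59 ± 0.06, and S-Lap3 was above S-Lap5 in all 200, by 3.24 ± 0.13. Smaller steps separated loopin-1 from S-Lap7 (0.11 ± 0.06, 190 of 200 lines) and S-Lap8 from S-Lap2 (0.13 ± 0.08, 192 lines). S-Lap7 exceeded S-Lap4 in 149 lines, by 0.04 ± 0.07, which is less than the spread between lines. S-Lap2 and S-Lap3 could not be ordered: their difference was 0.003 ± 0.09, and S-Lap2 was the higher in 102 lines.

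Summed over the 8 genes, a male library held from 1630 to 6341 FPKM, with a median of 3788. S-Lap1 supplied 24.6% ± 0.60 of this sum (SD over 200 lines), loopin-1 16.5% ± 0.59, S-Lap7 15.3% ± 0.41 and S-Lap4 14.9% ± 0.39. S-Lap8, S-Lap2 and S-Lap3 each supplied between 8.96% and 9.85% on average, and S-Lap5 0.95% ± 0.09. The line mean of the summed level differed 3.69-fold between its extremes, from 1699 FPKM in line 325 to 6267 FPKM in line 642, yet the share of S-Lap1 stayed between 22.5% and 25.9% in every line.

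Line 325 had the lowest male mean of all 8 members and line 642 the highest of all 8, out of 200 lines. In the male libraries of line 325, S-Lap1 read 8.63 and 8.82 log2 FPKM, and S-Lap3 read 7.17 and 7.19. In line 642 the corresponding values were 10.62 and 10.59 for S-Lap1 and 9.13 and 9.04 for S-Lap3. Both replicates of each line therefore lay at the same end, and the ratio between these lines ran from 3.51-fold for S-Lap2 to 4.25-fold for S-Lap5. The mean of the testis markers was also lowest in line 325 (5.50 and 5.46) and highest in line 642 (7.04 and 7.05). Accessory gland markers were not low in line 325, with 9.61 and 9.71 against a median line mean of 9.30. The male depths of these lines were 12.5 and 10.4 M reads in line 325 and 20.0 and 11.9 M reads in line 642.

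Every member varied between lines by more than its replicates did. The SD between lines, with replicate error removed, was 0.23 to 0.28 log2 units in the 8 genes, and the SD between replicate libraries of a line was 0.14 to 0.16. All 8 passed the F test of line variance (limma, Benjamini-Hochberg adjusted over 15017 genes with a mean of at least 0 log2 FPKM), with adjusted p-values from 1.29e-41 for S-Lap3 to 1.2e-27 for S-Lap7. The same test called 89.6% of all genes tested, so that passing it was the usual outcome. Broad-sense heritability, the share of variance that lay between lines, was highest in S-Lap3 at 0.778 (95% interval 0.717 to 0.827) and lowest in S-Lap7 at 0.671 (0.588 to 0.741). Its median was 0.730 over the 8 members and 0.510 over all genes tested. The members' median SD between lines, 0.25, was close to the 0.24 of all genes, while their SD between replicates, 0.15, was below the 0.22 of all genes. The replicates are separate pools of flies of one inbred line, so these p-values compare lines with the spread between pools.

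**Figure D1:**
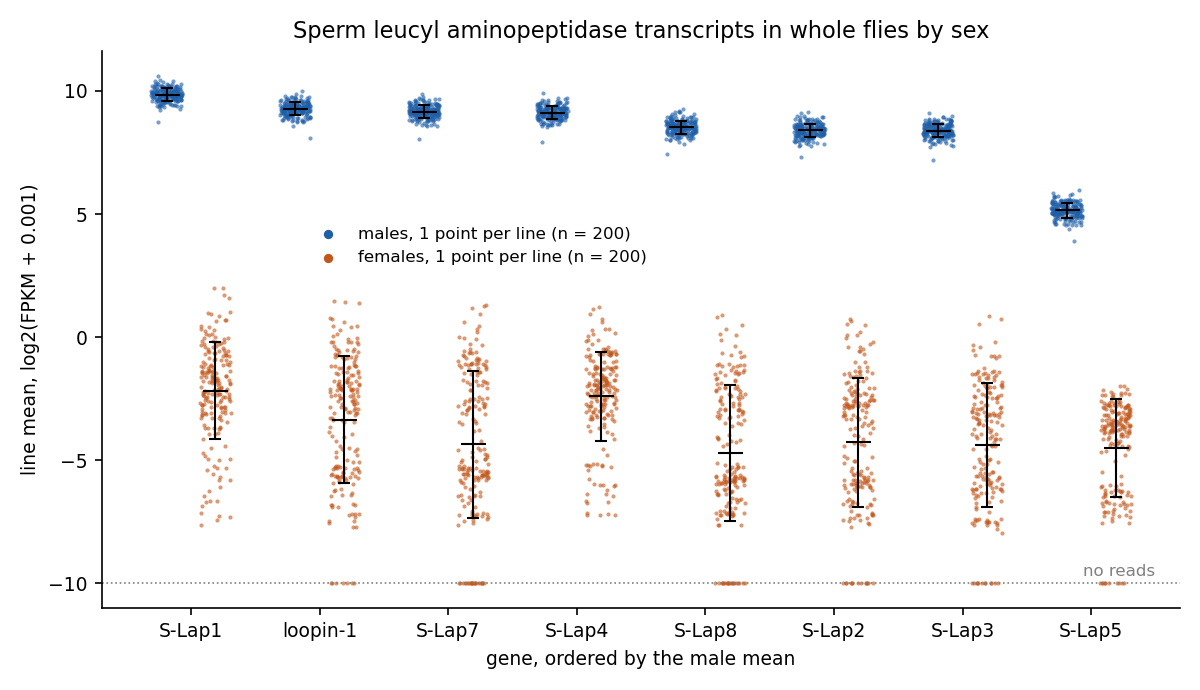
Line means of the 8 genes in log2(FPKM + 0.001), with 1 point for each of 200 lines per sex, and bars for the mean ± SD over lines. Male points lie in narrow bands between 3.90 (S-Lap5 in line 325) and 10.6 (S-Lap1 in line 642), female points spread from about 2 down to the dotted line where neither library had a read.

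In females the 8 genes were at a few reads per library. S-Lap1 and S-Lap4, the members with the highest female values, had a median of 7.49 and 5.99 reads per female library, and the others had between 2.00 and 5.99. No read was recorded in 26 of 400 female libraries for S-Lap1 (6.5%), in 29 for S-Lap4, in 70 for S-Lap5 and in 129 for S-Lap8, the largest number. Median female levels were -1.89 log2 FPKM for S-Lap1 and -3.52 for S-Lap5, with the other 6 between -3.44 and -1.98. No female library reached the lowest male library of the same gene, and the gap between them was 4.72 log2 units for loopin-1 and 4.95 for S-Lap8, with the others between.

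The difference between the sexes was tested on the 200 line differences. Female minus male was -12.02 ± 0.14 (SE, n = 200 lines) for S-Lap1, -13.51 ± 0.21 for S-Lap7 and -9.66 ± 0.14 for S-Lap5, with the other 5 between -13.24 and -11.53. All 8 were higher in males in 200 of 200 lines and passed the test (limma, adjusted over 15447 genes, adjusted p from 1.91e-162 for S-Lap4 to 3.27e-135 for S-Lap7, and a minimum difference of 1 log2 unit). The filter asked for a mean of at least 0 log2 FPKM in either sex, and all 8 met it through males alone. Their female means were -4.71 to -2.17, and a gene that enters this way can only be higher in males. The direction of these calls is therefore no independent result. Among all genes tested, 37.2% were higher in males and 20.8% higher in females by the same filter and rule. That is 5749 against 3215 genes, which became 4040 against 4738 when each library was centred on its median. The median difference over all genes was -0.51 log2 units, and centring moved the members to between -9.11 and -12.97. Since female levels rest on a few reads, the size depended on the pseudocount: with 1 FPKM in place of 0.001, the differences were -5.06 for S-Lap5 and -8.10 to -9.27 for the other 7. As a ratio of median FPKM, males exceeded females 412-fold for S-Lap5 and between 2217-fold for S-Lap4 and 4456-fold for S-Lap7.

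Traces of the 8 genes in females went with traces of other transcripts that are abundant in males, those of the accessory gland, which makes seminal fluid proteins, of the testis and of the ejaculatory bulb. The highest female value of 7 members came from replicate 1 of line 158, where S-Lap1 read 3.73 log2 FPKM, while replicate 2 of that line read 0.24. S-Lap5 had its highest female value, -0.89, in replicate 1 of line 195, with -3.36 in replicate 2. Replicate 1 of line 158 held 57.2 FPKM summed over the 8 genes and 93.0 FPKM summed over 7 accessory gland markers, against 4.54 and 5.37 FPKM in replicate 2. The next highest library, replicate 2 of line 397, held 46.5 and 157 FPKM, against 0.943 and 0.170 FPKM in its partner. These lines were singled out after their values were seen.

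Between the 2 female libraries of a line, the one with more of the 8 genes also had more of the accessory gland markers in 171 of 200 lines. For the full testis list the count was 123 and for the full ejaculatory bulb list 106, but those sums were mostly of genes with high female levels. EbpIII averaged 8.03 log2 FPKM in females and made up 98.5% of the female bulb sum, and twe made up 81.9% and bol 10.4% of the female testis sum. With the genes of a female mean below 0 log2 FPKM alone, a restriction added after the data had been seen, the count was 169 for 11 testis markers and 163, with 1 tie, for the bulb genes Ebp and EbpII. All 7 accessory gland markers met that restriction, so the 3 organs gave 163 to 171 of 200 lines, and the difference between organs was not tested. The remaining lists gave 92 for ovary, 97 for muscle and 109 for gut. In males, with the full lists, the count was 146 for testis, 131 for gut, 116 for ovary, 101 for muscle, 97 for accessory gland and 87 for ejaculatory bulb. The accessory gland list summed to 0 FPKM in 9 female libraries, to 1.62 FPKM at the median and to 157 FPKM at most, and the 8 genes to 0.0461, 1.37 and 57.2 FPKM at the lowest, the median and the highest. Where the list was above 0, the ratio of the 8 genes to the accessory gland markers had a median of 0.839 in females (391 libraries, quartiles 0.575 and 1.26) and of 0.659 in males (400 libraries, quartiles 0.519 and 0.869). The balance among members in females, pooled over libraries, was close to that of males for S-Lap1 (23.6% and 24.6% of the sum) and loopin-1 (16.3% and 16.5%), and S-Lap5 made up 3.23% in females and 0.95% in males. The part of male transcripts from other organs in these female values was not tested.

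**Figure D2:**
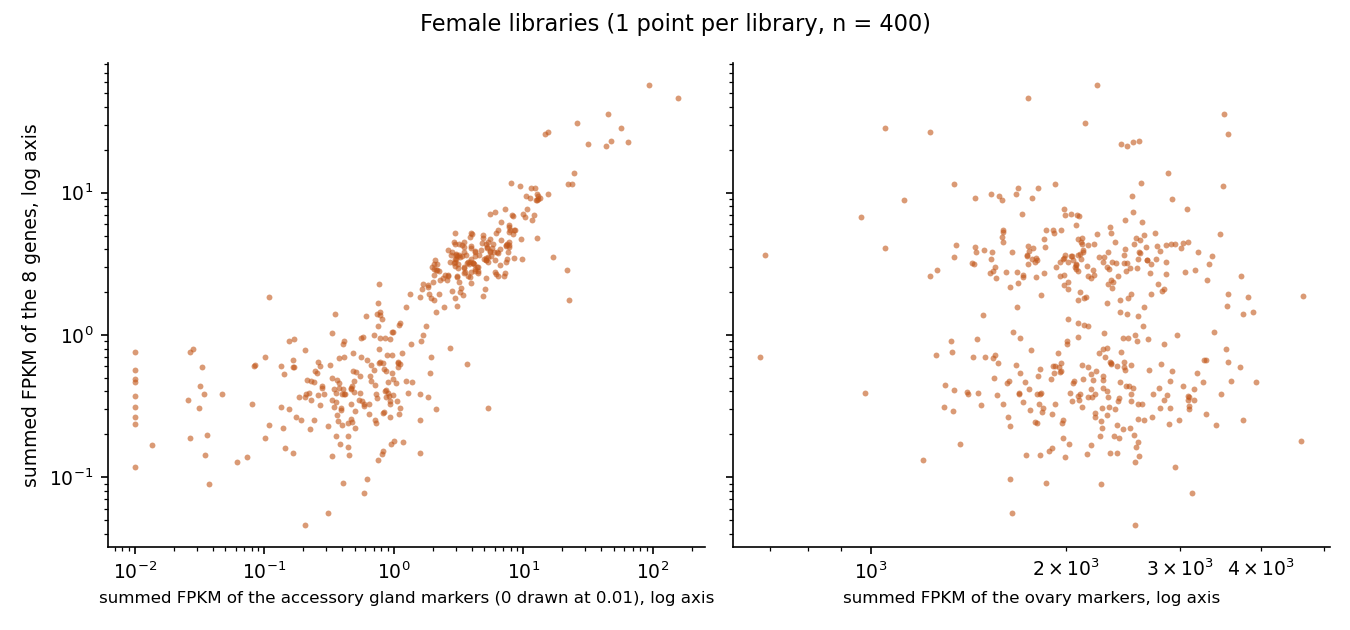
Summed FPKM of the 8 genes (vertical, log axis) in 400 female libraries against the summed FPKM of 7 accessory gland markers (left) and of 6 ovary markers (right), both on log axes, with sums of 0 drawn at 0.01. On the left the points follow a rising band that reaches 57.2 FPKM, with a sparse stretch near 1 FPKM between its lower and upper clouds, and on the right the points form no band.

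Whether lines differed in how far males exceeded females could not be read from these genes. With both sexes required to average at least 0 log2 FPKM, none of the 8 entered the test of the line-by-sex interaction. Without that filter, S-Lap5 alone passed it (limma, adjusted p = 0.0466 over 35014 features), in a test that called 39.2% of features, and the adjusted p-values of the other 7 ran from 0.336 to 0.711. The female values behind this test rest on a median of 2.00 to 7.49 reads per library.

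Across male line means the 8 genes rose and fell together. S-Lap1 and S-Lap7 formed the tightest of the 28 pairs, although they lie on different arms, with Pearson's r = 0.985 and Spearman's rho = 0.979 over 200 lines. S-Lap5 and loopin-1 formed the loosest, with r = 0.865 and rho = 0.838. The median r over the pairs was 0.953, and with the 2 most distant lines on the first member of a pair removed, r lay between 0.844 and 0.982. In every pair both coefficients had a permutation p of 1e-05, the smallest that 100000 permutations can give. All 28 pairs were positive in limma's fit over all genes, with adjusted p-values of at most 7.42e-59. That fit called a positive relation for 32.8% of the other genes with S-Lap1, 34.8% with S-Lap2, 33.3% with S-Lap3, 33.1% with S-Lap4, 33.9% with S-Lap5, 33.6% with S-Lap7, 34.1% with S-Lap8 and 33.2% with loopin-1. The median r of all genes tested with a member was 0.03 to 0.04.

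Pairs that lie close together on a chromosome arm ranged from tight to loose. The adjacent S-Lap1 and S-Lap2 had r = 0.933 (rho = 0.924, permutation p of 1e-05 for both), below the median pair. S-Lap3 and S-Lap4 had r = 0.977 (rho = 0.974), and S-Lap4 was the gene of highest r to S-Lap3. S-Lap8 and loopin-1 had r = 0.949 (rho = 0.936), and S-Lap5 and S-Lap7 0.885 (rho = 0.866), with the same permutation p. Among 15016 other genes ranked by r, the other 7 members had a median position of 4 for S-Lap1, S-Lap2, S-Lap4, S-Lap7, S-Lap8 and loopin-1, and of 7 for S-Lap3. For S-Lap5 the median position was 62 and the best 20.

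The members also moved together between replicate pools of the same line. Replicate differences of 2 members correlated at r = 0.770 to 0.954 across the 28 pairs, given as a description, since both members were read from the same libraries. Taking 1 member from one replicate and its partner from the other removes the shared library, and r was then 0.662 to 0.758, still positive in all 28 pairs. Leaving out either replicate gave r between 0.853 and 0.984.

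The genes outside the family with the most similar male pattern were chosen by rule, as the 2 with the highest r to each member. CG5089 was among them for S-Lap1, S-Lap4, S-Lap7 and loopin-1 (r = 0.946 to 0.958), and CatB for S-Lap2, S-Lap4, S-Lap7 and S-Lap8 (0.940 to 0.961). betaTub85D, the testis beta-tubulin of the sperm tail axoneme, was among them for S-Lap2, S-Lap3 and S-Lap8 (0.940 to 0.961). The others were TrpRS-m, a mitochondrial tryptophanyl-tRNA synthetase (0.953 with S-Lap1), CG3345 (0.952 with S-Lap3) and CG17377 (0.937 with loopin-1). S-Lap5 had different partners, CG30350 (0.920) and gskt, a testis kinase of the GSK-3 family (0.918). The lowest r with any member was -0.376, between S-Lap2 and RhoGAP19D. The remaining lowest values, -0.374 to -0.349, came from RhoGAP19D, Rbcn-3B, CG14440, CG9932 and aop, an Ets repressor.

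**Figure D3:**
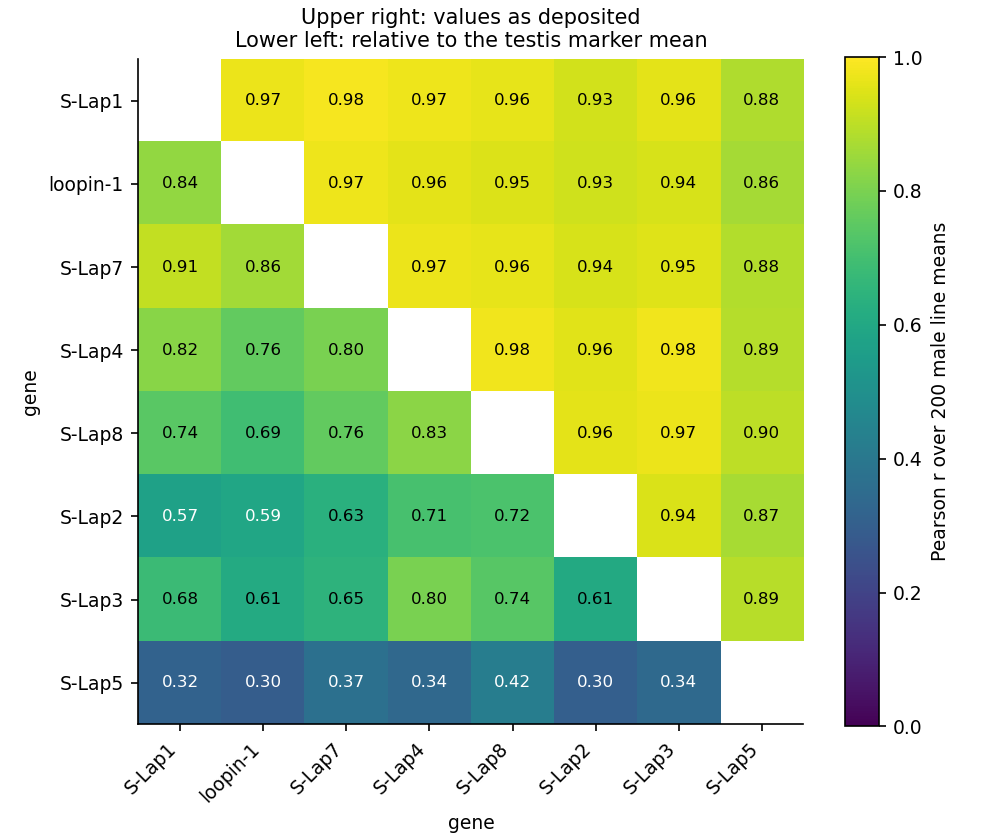
Pearson's r over 200 male line means for the 28 pairs, as deposited (upper right) and after subtraction of the testis marker mean from each male library (lower left), with members ordered by male mean. Values run from 0.86 to 0.98 above the diagonal and from 0.30 to 0.91 below it, with S-Lap5 lowest on both sides.

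The 8 genes also moved with the testis markers. The mean of 14 such genes, which hold no member, was related to all 8 genes, from r = 0.894 (rho = 0.867) for S-Lap5 to r = 0.95 (rho = 0.939) for S-Lap3. Permutation p was 1e-05 throughout, r fell to 0.882 to 0.947 once the 2 most extreme lines in the marker mean were dropped, and the slopes were 0.97 to 1.09 log2 units per unit of the marker mean. All 8 passed limma's fit over 15017 genes with adjusted p-values of at most 1.11e-68, and 33.0% of those genes did so in the positive direction. With markers and member from different replicates, r was 0.713 to 0.763. Over line means, the markers of other male organs had r near 0 with the members. The mean of 7 accessory gland markers had r = 0.04 to 0.08 with the members, rho = 0.05 to 0.10 and permutation p between 0.152 and 0.612, and called 0 of the 8 against 3.83% of all genes. The mean of 3 ejaculatory bulb markers had r = -0.13 to -0.01, rho = -0.11 to -0.01 and permutation p between 0.0616 and 0.892. Between the replicate pools of a line the coefficients were higher: replicate differences correlated at r = 0.123 to 0.305 for the accessory gland and 0.288 to 0.516 for the ejaculatory bulb, against 0.725 to 0.896 for the testis. These are given as a description, since list and member were read from the same libraries. With list and member from different replicates, r was 0.001 to 0.03 for the accessory gland and -0.15 to -0.05 for the ejaculatory bulb. With the general mitochondrial genes described further on, these are 32 relations of 8 members to 4 lists that were given a permutation p. Limma's fit was also run on the means of the other gene lists. It called every member for spermatid mitochondria, sperm tail, meiotic arrest and early germline genes, where 29% to 33.7% of all genes were called positive. For muscle, gut and ovary markers it called no member, against 0.573% to 2.84% of all genes. Some lists share genes with the testis markers, so their fits are not independent of that one. The shared genes are dj and fzo (spermatid mitochondria), betaTub85D, Mst98Ca, Mst98Cb and Mst87F (sperm tail), and aly, can and sa (meiotic arrest).

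**Figure D4:**
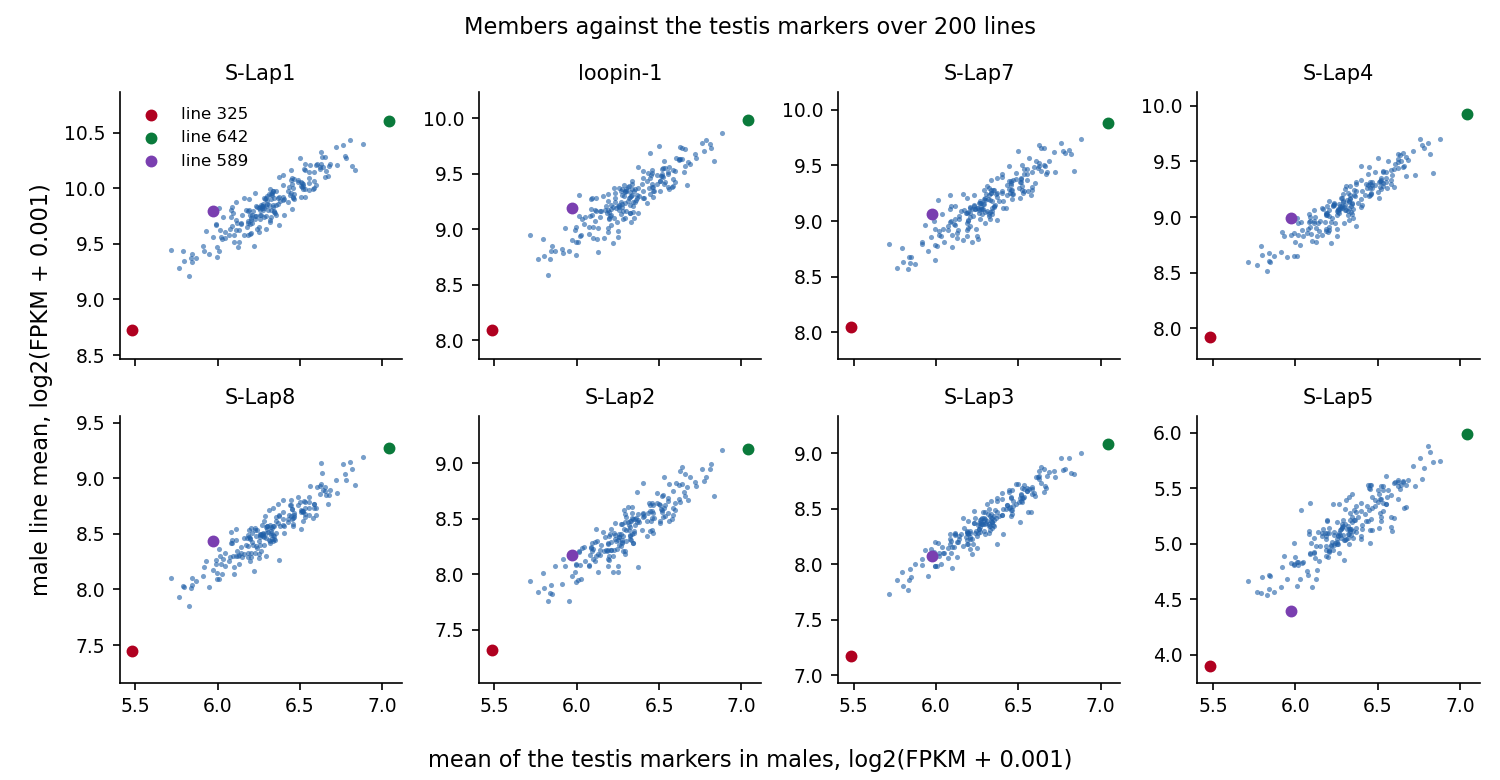
Male line mean of each gene (vertical) against the mean of 14 testis markers (horizontal), both in log2(FPKM + 0.001), with 1 point for each of 200 lines. Points form a band of slope near 1 in every panel, line 325 lies at the lower end and line 642 at the upper end of all 8, and line 589 lies below the band for S-Lap5.

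After the testis marker mean was subtracted from each male library, the members still varied and still moved together. The SD between lines fell to between 0.06 and 0.10 log2 units, and heritability to between 0.197 for S-Lap7 and 0.596 for S-Lap3. The median heritability of all genes tested was 0.677 on this scale, above that of every member. All 8 passed the F test on this scale (limma, adjusted p of at most 0.00322), as did 96.8% of all genes. All 28 pairs were still called positive, with r from 0.295 (S-Lap5 and loopin-1, adjusted p = 0.00166) to 0.908 (S-Lap1 and S-Lap7, adjusted p = 4.31e-58) and a median of 0.687. On this scale a positive relation was called for 6.84% of the other genes with S-Lap1, 4.81% with S-Lap2, 4.88% with S-Lap3, 4.89% with S-Lap4, 4.76% with S-Lap5, 10.3% with S-Lap7, 4.93% with S-Lap8 and 6.31% with loopin-1. The same term is subtracted from every gene, so any part of it that a gene does not follow becomes shared with other genes. Members had slopes of 0.97 to 1.09 on that term, so for them the subtraction mainly removed a shared part. Genes that do not follow the testis markers gained one instead. S-Lap1, S-Lap7, S-Lap4 and loopin-1 had r of at least 0.759 in every pair among themselves, while every pair with S-Lap5 lay between 0.295 and 0.423.

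The balance among the 8 genes was seen by subtracting, in each male library, the mean of the 8. What remained was small, with an SD of line means of 0.04 to 0.07 log2 units in 7 members and of 0.11 in S-Lap5. By the F test on this scale, 7 of 8 still varied between lines, in a test that again called 96.8% of genes. S-Lap5 had the highest heritability of the members at 0.604 (95% interval 0.509 to 0.685), followed by S-Lap2 at 0.524 and S-Lap8 at 0.503. The exception was S-Lap3 at 0.0442 (0 to 0.181, limma adjusted p = 0.408). Its SD between replicates, 0.073 log2 units, exceeded its SD of line means, 0.054, and no replicate block was fitted on this scale. The missing call therefore does not show that its balance is the same in all lines. The median heritability of all genes tested was 0.680 here. Subtracting a mean that holds the gene itself ties the 8 values to each other, and this scale was added after the data had been seen.

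Line 589 stood apart in this balance. S-Lap5 was 0.54 log2 units below its usual place there, at -0.58 and -0.50 in the 2 libraries, while the next lowest line, 315, was at -0.25. On the deposited scale S-Lap5 read 4.49 and 4.29 in line 589, second lowest of 200 lines, whereas the other 7 members ranked from 22nd to 77th lowest. At the other end, S-Lap5 was highest relative to the family in line 101, at 0.33. The largest departure of any other member was -0.20, for S-Lap3 in line 437. The line was singled out after its values were seen, and it carried no test of its own.

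**Figure D5:**
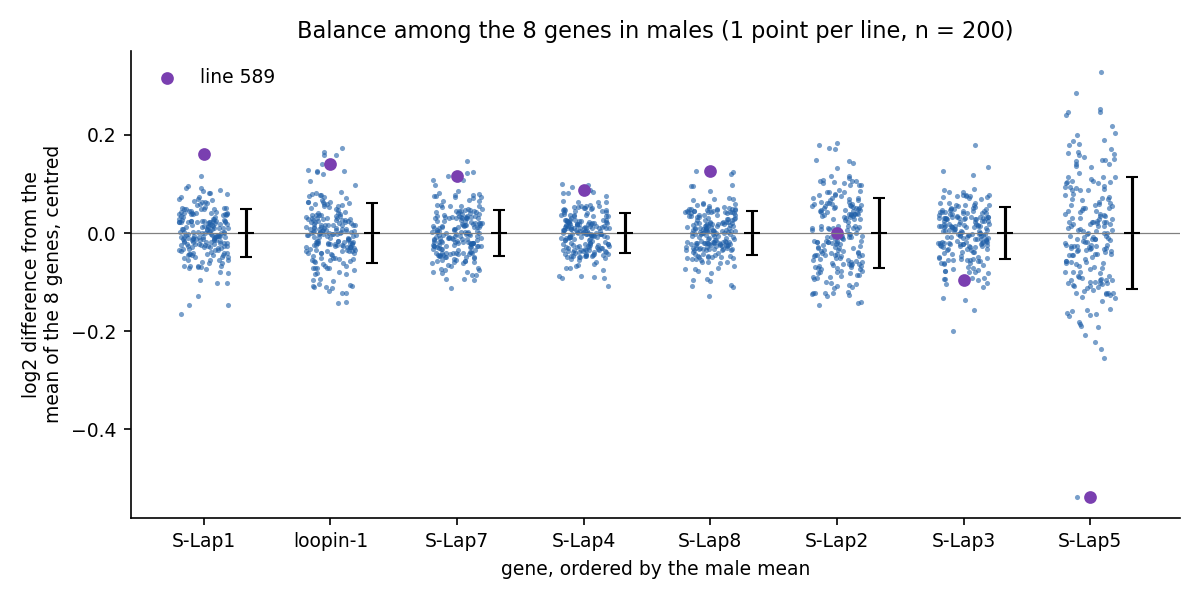
Level of each gene relative to the mean of the 8 genes in the same male library, as log2 line means centred on 0, with 1 point for each of 200 lines and bars for ± 1 SD over lines. S-Lap5 spreads widest (SD 0.11), and line 589 lies at -0.54 for S-Lap5 but at no more than 0.16 from 0 for the other 7.

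The authors' deposited variant density, a log2 value per gene and line, was set beside male levels gene by gene. None of the 8 members passed the test against its own density (t test of Pearson's r, adjusted p from 0.22 to 0.899 over 14220 genes), which 25.2% of genes did. An unadjusted permutation p under 0.05 was found in 0 of 8, for r or rho. S-Lap1 had the most negative value, r = -0.12 (rho = -0.06, permutation p = 0.0918 and 0.377, and r = -0.10 once the 2 lines of most extreme density were dropped), and S-Lap8 the most positive, r = 0.09 (rho = 0.08, permutation p = 0.216 and 0.289). S-Lap2, with r = -0.10, had rho = -0.14 (permutation p = 0.157 and 0.0554). These are 8 relations, 1 per member. Relative to the testis markers, S-Lap2 had r = -0.24 (t test of r, adjusted p = 0.00588) and S-Lap1 r = -0.18 (adjusted p = 0.0485), and both were called. Loopin-1 was close to them with r = -0.18 (adjusted p = 0.0587), and the other 5 had r from -0.05 to 0.11 and adjusted p from 0.278 to 0.88. The test on this scale called 20.0% of all genes, so 2 of 8 members is near the background. The density was above its lowest value in 186 of 200 lines for S-Lap1 and S-Lap7 and in 195 or more for the other 6.

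Other genes of the same setting were read from gene lists, and their counts stand beside the backgrounds given above. The general leucyl aminopeptidases grsm and Dip-B did not share the male pattern: grsm averaged 5.87 in males and 5.90 in females, and Dip-B 5.87 and 7.43, higher in females (limma, adjusted p = 1.35e-159). Both varied between male lines. Their median r with the members, 0.65 for grsm and 0.10 for Dip-B, is given as a description with no test, as are those of single genes that follow. The mean of grsm and Dip-B was nevertheless positively related to every member (limma, adjusted p from 6.58e-13 to 1.02e-10). That fit called 41.1% of all genes in the positive direction.

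Genes of spermatid mitochondria had the highest median r with the members among these lists. Of 12 matched, 12 varied between male lines, 10 were higher in males, 1 was higher in females (nmd, by 1.06) and 1 did not reach the minimum difference (mfrn, the mitoferrin iron carrier, at -0.32). dj, a sperm protein of the mitochondrial derivatives, was the most abundant at 8.46 in males and -4.58 in females, and gdl the least at 3.70 and 1.33. Their median r with the members was 0.84, with 0.92 for tomboy20, a testis import receptor of the outer membrane, and for bb8, a glutamate dehydrogenase of the Nebenkern. fzo, the mitofusin that fuses mitochondria into the Nebenkern, had 0.79.

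Mitochondrial shaping genes used in many cell types did not differ this way between the sexes. Of 5 matched (Marf, Opa1, Pink1, park and porin), none reached a difference of 1 log2 unit between the sexes, 4 varied between male lines, and the median over the 5 genes of their r with the members was 0.05. porin, the outer membrane channel, averaged 8.15 in males and 8.41 in females, and park, a ubiquitin ligase, 3.78 and 3.21. Marf, the mitofusin of somatic cells, had a median r of 0.05, Opa1, a fusion protein of the inner membrane, 0.003, Pink1, a mitochondrial kinase, 0.22 and park 0.61, while porin had -0.08. The mean of the 5 genes was nevertheless related to the members, with r = 0.28 to 0.35, rho = 0.342 to 0.409 and a permutation p of at most 5e-05. Without the 2 most extreme lines r was 0.273 to 0.347. All 8 members were called (limma, adjusted p from 4.25e-06 to 0.000329), in a fit that called 40.8% of all genes in the positive direction. Replicate differences correlated at r = 0.727 to 0.769, and with list and member from different replicates r was 0.07 to 0.09, both given as a description.

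Of 12 matched genes of the sperm tail, 12 varied between male lines and 11 were higher in males, with a median r of 0.73 with the members. The list runs from betaTub85D at 0.95 and Mst87F at 0.92 to Mst84Dc at 0.13. Mst84Da had the highest male mean of the list, 9.61 against -4.77 in females, and kl-2, a dynein heavy chain of the axoneme, the lowest at 1.38 against -9.25. Of 11 meiotic arrest regulators, which switch on transcription of spermatid genes in spermatocytes, 11 varied between male lines and 10 were higher in males, with a median r of 0.49. Taf12L averaged 4.35 in males and comr 0.78, and achi, at -0.59 between the sexes, was the one not called.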

How the data were processed

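The main table deposited by the authors holds the log2 FPKM of each gene in each library. Its lowest entry, -9.97, equals the log2 of 0.001, the constant that had been added to every FPKM. The submitters' processing notes name cutadapt, BWA 0.7.10, STAR 2.4.0e, Cufflinks 2.2.1, HTSeq and edgeR, and the builds BDGP5 and dm3, without saying what each was used for. The authors also deposited male line means and a variant density per gene and line, both on a log2 scale. Gene symbols matched 16734 of 17097 FBgn identifiers, and no sequences or coordinates are given, since the annotation at hand is of another build. No library was left out.

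Values were tested with limma 3.58.1 in R 4.3.3 on the deposited log2 scale, in genes with a mean of at least 0 log2 FPKM in males (in either sex for the sex difference, in both for the interaction), and p-values were adjusted over all genes tested with a threshold of 0.05. The tests were a moderated F test of lines against replicates, a test of 200 female-minus-male differences, and regressions of male line means on each member and each marker mean. Variant density was tested without limma, by a t test of Pearson's r with male line means (genes with a variant in at least 20 lines). Heritability intervals came from the F distribution at the 95% level. Single correlations used 100000 two-sided permutations. Each fit was tested on simulated data first.

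Depth came from the steps between low FPKM values: in 8603 features, 100% of values below 20 reads were whole within 0.05 reads, and annotated exon lengths of 1892 features set the scale. It is the denominator of the FPKM values, which may differ from the reads sequenced. The sequencing pool of each library is not named in the labels and was not used. Male line means here differ slightly from the authors' deposited table (r of 0.992 or more for each member), and the averages here were used throughout.

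Members and lists were chosen with earlier results of these data known. Named were all members, the 2 genes of highest and the 1 of lowest r to each, the genes of highest and lowest male mean in each list, and, chosen after their values were seen, a few further list genes and the lines named. The alternatives were another pseudocount, median centring, centring on the testis markers (male results only), other filters, a replicate block, a rank transform, depth as a covariate, each replicate left out, and lines left out.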

Additional observations from a re-analysis of the deposited data

How the results depend on the processing

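Of the counts recomputed under each alternative, 83 stayed near the main count and 6 moved further from it. Counts were judged by that ratio alone, so the switch in order of the sex counts under median centring, given above, was not marked. Of the single values, 481 kept their call, 2 gained a call, 1 lost it, and none reversed direction. Without a filter on low values, more features were tested and more called: 22050 for line variation in males, 13949 higher in males and 4935 higher in females for the sex difference, and 13735 for the line-by-sex interaction, which then called 1 member, S-Lap5. After centring on the testis markers, variant density called 2 members in place of 0 (S-Lap1 with r = -0.18 and S-Lap2 with r = -0.24), and the cause was not tested. After centring on the mean of the members, which was added after the data had been seen, S-Lap3 was no longer called (heritability 0.0442), and 7 members were. Leaving out lines 158 and 325, also added later, changed no call of a member. Libraries centred on their median gave members heritabilities of 0.736 to 0.856.

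Replicate numbers were not used to pair samples across sexes. The deviations of male and female libraries with the same number correlated above 0.1 in 83 of 200 lines. Their r ran from -0.21 to 0.43 with a median of 0.08, which is weak but positive, and a pairing was not tested. A fit with the replicate number as a block called 14082 genes for line variation in males, against 13452 without it, and 8893 for the interaction, against 7968, and all 8 members in the former and none in the latter. The F tests of line variation and interaction cannot be run with 1 replicate. The female values rest on a few reads per library. The sequencing pools are not named in the labels and cannot be told apart here.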
